A study of Mus musculus with 30 samples.

Results

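The 8 genes described here encode proteins of the dystrophin glycoprotein complex or its utrophin counterpart: Dmd (dystrophin), Utrn (utrophin), Dag1 (dystroglycan), Sgca, Sgcb and Sgcd (the alpha-, beta- and delta-sarcoglycans), Dtna (alpha-dystrobrevin) and Sspn (sarcospan). They were chosen by name and matched by Ensembl identifier to 8 of the 55487 rows of the count table. All 8 were among the 15907 genes that passed the filter on low counts. RNA was sequenced from C2C12 cells, an established mouse myoblast line that fuses into myotubes when serum is reduced, and all cells were labelled wild type (WT). In every group, myotubes were differentiated for 4 days in low glucose DMEM with 2% horse serum and then kept for 4 more days, 8 days in all. The 2% HS group stayed in 2% horse serum. The SD group was deprived of serum, the MET group was deprived of serum with 100 nM metformin, the LEU group was deprived of serum with 500 nM leucine, and the MET+LEU group was deprived of serum with both at those doses. Each group had 6 libraries, 30 in all. Nothing in the labels says whether the replicates of this one cell line were separate cultures, so the p-values measure only the spread between these libraries, which may be technical.

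The complex spans the membrane of the muscle fibre. Inside the cell, dystrophin binds actin with one end and beta-dystroglycan with the other, and outside the cell alpha-dystroglycan, which is cut from the same Dag1 precursor, binds laminin through sugar chains. The sarcoglycans and sarcospan form a subcomplex that steadies dystroglycan, and dystrobrevin and the syntrophins tie signalling proteins to dystrophin. Utrophin is a homologue of dystrophin that anchors a similar complex, mainly at the neuromuscular junction in adult muscle and more widely in immature fibres. Loss of dystrophin causes Duchenne muscular dystrophy, and loss of a sarcoglycan causes a limb-girdle dystrophy.

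Libraries held between 12784960 and 19604103 counts. All 14 markers of differentiated myotubes were detected above 3 counts in every group, whereas the summed level of the markers of adipocytes reached at most 0.268 CPM (read counts relative to the scaled library size) in any library, that of endothelial markers 1.14 CPM, that of leukocyte markers 4.65 CPM and that of Schwann and nerve cell markers 3.38 CPM. Markers of fibroblasts and of undifferentiated or cycling myoblasts were well above these levels. In 2% HS they summed to 4294 to 4699 CPM and to 759 to 813 CPM. One library stood apart. In MET+LEU replicate 6, ribosomal RNA genes took 5.85% of the counts and mitochondrial ribosomal RNA genes 7.64%, against at most 1.96% and 0.76% in the other libraries. For MET+LEU, the values without this library stand beside each call that it ends and are summarised for the others.

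In the GENCODE annotation of the GRCm38 mouse genome, the 8 genes differ widely in size. Dmd lies on the plus strand at chrX:82948870-85206141 and spans 2257 kb, Utrn on the minus strand at chr10:12382188-12869365, Dag1 on the minus strand at chr9:108204634-108263958 and Sspn on the plus strand at chr6:145931641-145965223. Sgca and Sgcd are both on the minus strand of chromosome 11, at chr11:94962791-94976327 and chr11:46896253-47988969, Sgcb is on the minus strand at chr5:73632749-73647790, and Dtna is on the plus strand. Dmd has 14 annotated transcripts, Utrn 13 and Dtna 10, and a gene count pools them, so full-length dystrophin and its shorter products from internal promoters cannot be told apart. No exon of the 8 genes shared bases with another gene on the same strand. On the opposite strand, 0.532% of the exon bases of Dtna were shared with Gm47898 and 1.38% of those of Sspn with Sspnos.

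Per kilobase of exon, Dag1 was the most abundant of the 8 transcripts. Its level in 2% HS was 234 ± 9.5 CPM per kb (SD, n = 6). The 3 sarcoglycan genes did not have one level: Sgcb had 47.6 ± 0.913 and Sgca 44.4 ± 1.26 CPM per kb, but Sgcd only 4.9 ± 0.364. The ranges of Sgcb and Sgca over the 6 libraries overlapped in 2% HS, from 46.0 to 48.5 and from 43.2 to 46.1. In SD the order was clear, with Sgca at 49.7 ± 2.95 and Sgcb at 40.3 ± 0.711 CPM per kb, and the lowest Sgca library (47.6) lay above the highest Sgcb library (41.2). Sspn and Utrn also overlapped in 2% HS, at 25.1 ± 1.42 and 24.3 ± 0.341 CPM per kb, and separated in SD, where Utrn had 23.99 ± 1.04 and Sspn had 20.6 ± 0.658. Dtna (8.97 ± 0.318 in 2% HS) came next. Dmd was the lowest of the 8 at 3.28 ± 0.342 CPM per kb. The values, the order of Sspn and Utrn and the nearness of Sgcb and Sgca in 2% HS rest on the length used. Divided by the longest transcript instead of all exons, the 2% HS level of Utrn was 33.6 CPM per kb and that of Sspn 27.7, followed by Dtna at 24.1, Sgcd at 9.08 and Dmd at 5.23. By that length Sgcb had 51.0 ± 0.977 and Sgca 44.7 ± 1.27 CPM per kb in 2% HS.

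**Figure D1:**
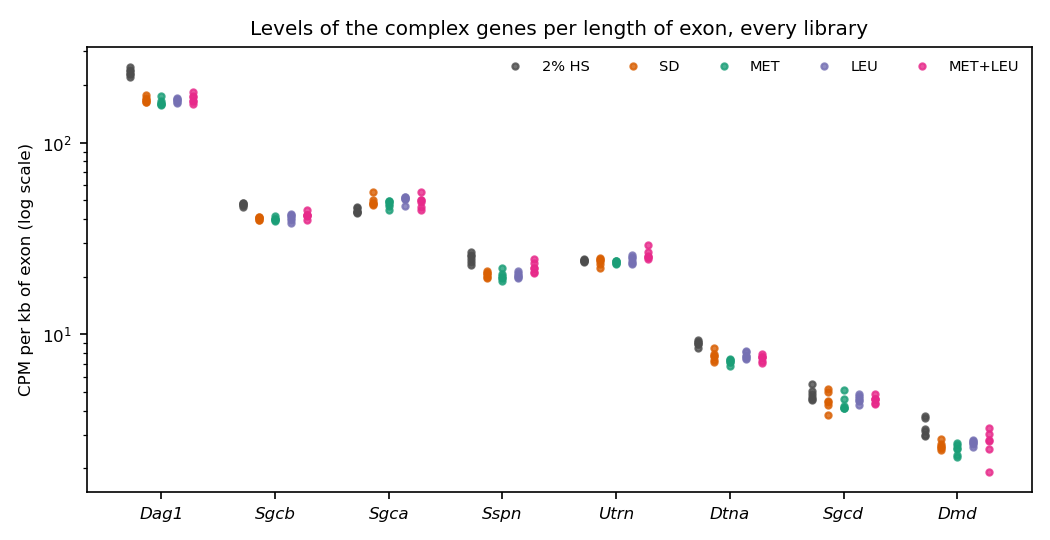
Level of each gene in CPM per kb of exon on a log axis, 1 point for each of the 30 libraries, coloured by group and ordered by the mean in 2% HS. Dag1 lies far above the rest, at 221 to 248 CPM per kb in 2% HS, and Dmd is at the bottom, at 2.94 to 3.73.

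The first comparison asked what serum deprivation did to these genes. In SD vs. 2% HS, 6 of the 8 genes passed an adjusted p of 0.05 (edgeR, quasi-likelihood F test, Benjamini-Hochberg over all genes tested). In this comparison 27.8% of all genes tested were called, 13.9% lower and 13.9% higher. Of the 8, 5 fell (Dag1, Dmd, Sspn, Sgcb and Dtna) and 1 rose (Sgca). Utrn and Sgcd did not pass. The median log2 fold change of the 8 was -0.23, and that of all genes tested was 0.0028.

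Dag1, which encodes the laminin receptor at the core of the complex, had the largest change. Its level was 1407, 1486 and 1575 CPM in the lowest, median and highest 2% HS library and 1034, 1064 and 1134 CPM in SD. The 2 groups did not overlap. Dag1 fell by 28.2%, a log2 fold change of -0.48 ± 0.036 (SE, adjusted p = 2.53e-15). In order of p-value it was gene 108 of the 15907 tested.

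Dmd and Utrn, the paralogous cytoskeletal anchors, differed in this comparison. Dmd ranged from 70.0 to 88.8 CPM in 2% HS (median 75.4) and from 59.0 to 67.6 CPM in SD (median 61.6). Every SD library was below every 2% HS library, and Dmd fell by 19.9% (log2 fold change -0.32 ± 0.08, adjusted p = 0.00256). The 2% HS replicates 1 and 2 lay above the others at 88.8 and 87.2 CPM. Utrn ranged from 407 to 421 CPM in 2% HS (median 417) and from 382 to 430 CPM in SD (median 416). The Utrn ranges overlapped, and its change was -1.25% with a 95% interval from -5.95% to 3.68% (adjusted p = 0.749).

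Because both transcripts were counted in the same library, the ratio of Utrn to Dmd counts does not depend on library scaling. It was 4.73, 5.49 and 5.92 in the lowest, median and highest 2% HS library and 6.15, 6.57 and 7.15 in SD. No SD library reached down to the 2% HS range. The difference in log2 ratio was 0.30 ± 0.067 (SE; exact two-sided permutation test, p = 0.00216, adjusted p = 0.00866 over 4 comparisons), and 0.00216 is the smallest p that 6 against 6 libraries allow. Against SD, by the same exact test, the ratio did not pass for MET (difference 0.053, adjusted p = 0.514), LEU (-0.023, adjusted p = 0.602) or MET+LEU (0.095, adjusted p = 0.514; 0.12 without MET+LEU replicate 6). MET+LEU replicate 2 was highest at 9.32, while the median ratio was 6.57 in both MET+LEU and SD. This ratio compares read counts and not molecules, since Dmd has 23.8 kb of annotated exon and Utrn 17.1 kb.

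**Figure D2:**
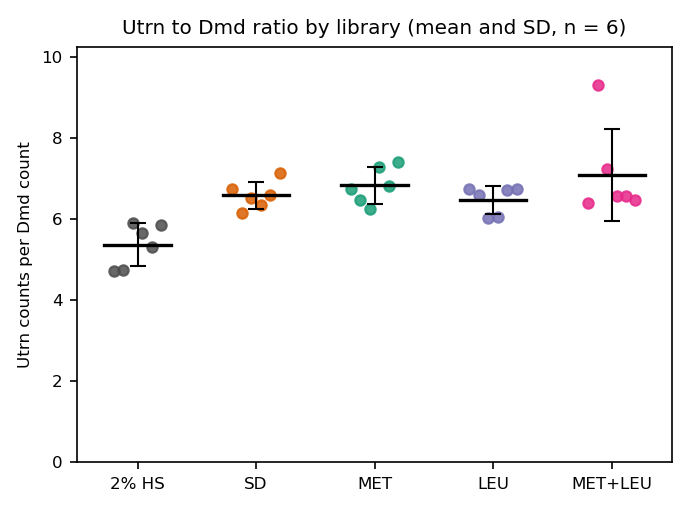
Utrn counts per Dmd count in each library (points), with the group mean (bar) and SD (whisker), n = 6. The 2% HS libraries sit between 4.73 and 5.92, below all SD libraries, and MET+LEU replicate 2 is highest at 9.32.

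The sarcoglycan genes moved in opposite directions. Sgcb, whose product is needed to assemble the sarcoglycan core, ranged from 186 to 197 CPM in 2% HS (median 194) and from 159 to 167 CPM in SD (median 163). It fell by 15.4% (log2 fold change -0.24 ± 0.032, adjusted p = 2.85e-08), with no overlap between groups. Sgca, which is specific to striated muscle, ranged from 74.9 to 79.9 CPM in 2% HS (median 76.3) and from 82.5 to 96.1 CPM in SD (median 84.1). All SD libraries lay above all 2% HS libraries for Sgca, and it rose by 11.9% (0.16 ± 0.043, adjusted p = 0.00326). Sgcd, also part of the core, ranged from 37.6 to 45.7 CPM in 2% HS (median 39.8) and from 31.3 to 42.8 CPM in SD (median 37.0). Its ranges overlapped, and the change was -7.72% with a 95% interval from -15.2% to 0.382% (adjusted p = 0.152, and 0.0445 without SD replicate 5).

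Sspn and Dtna also fell. Sspn, a tetraspanin-like protein bound to the sarcoglycans, ranged from 115 to 135 CPM in 2% HS (median 126) and from 98.7 to 107 CPM in SD (median 103), without overlap. It fell by 17.9% (-0.29 ± 0.042, adjusted p = 4.07e-07). Dtna, which binds dystrophin and the syntrophins, ranged from 143 to 159 CPM in 2% HS (median 152) and from 121 to 144 CPM in SD (median 130). Only its highest SD library, replicate 5 at 144 CPM, reached the 2% HS range, and Dtna fell by 14.2% (-0.22 ± 0.038, adjusted p = 7.08e-06).

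**Figure D3:**
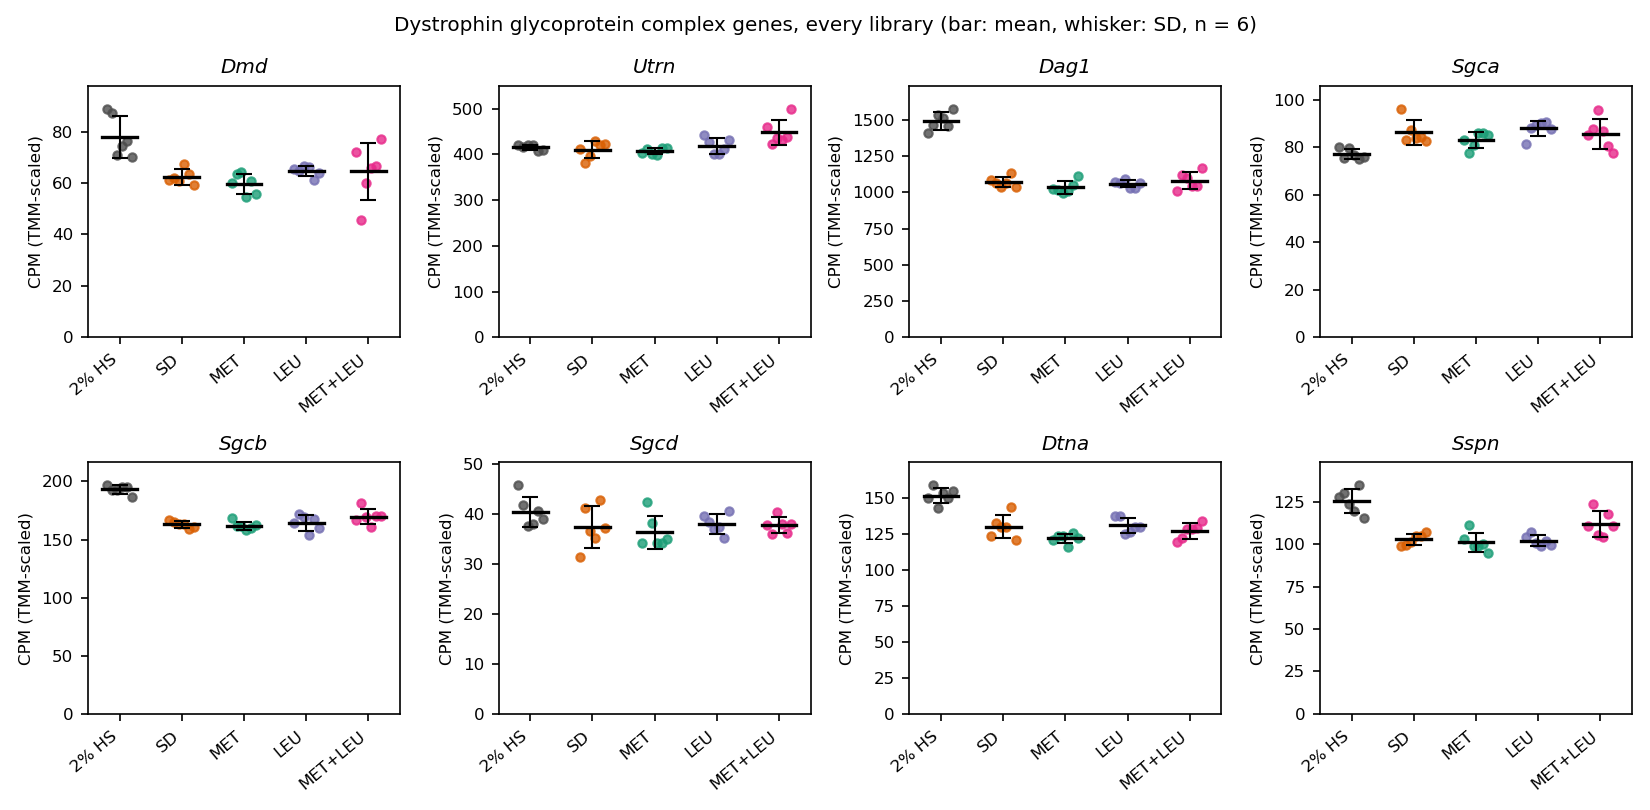
Library-scaled CPM of each of the 8 genes in every library (points), with the group mean (bar) and SD (whisker), n = 6; each vertical axis starts at 0. Dmd, Dag1, Sgcb, Dtna and Sspn are highest in 2% HS, Sgca is lowest there, and Utrn is highest in MET+LEU (mean 448 CPM).

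In the same comparison, markers of myotubes and of fibroblasts also moved. The summed level of the 14 myotube markers was 43269 to 46114 CPM in 2% HS and 35338 to 37769 CPM in SD, where 6 markers fell and 2 rose. Most of that sum was Ttn, the gene of the giant sarcomere protein titin, with a mean of 30972 CPM in 2% HS and 24592 CPM in SD, and the means of Myog, Myh3, Des and Casq2 were higher in SD. The summed level of the 8 fibroblast markers was 4294 to 4699 CPM in 2% HS and 7333 to 7722 CPM in SD, and all 8 rose. The 9 markers of undifferentiated or cycling myoblasts summed to 759 to 813 CPM and 669 to 739 CPM, with 1 rise and 2 falls. That share was near the 27.8% of all genes called, 13.9% in each direction. The part of these marker lists in the changes of the complex genes was not tested. In these bulk samples, a smaller share of myotubes and less transcript per myotube cannot be told apart.

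Upstream sequence is shown for the gene with the largest fall (Dag1), the gene that rose (Sgca) and Dmd, each as the 250 bases before a RefSeq transcription start in GRCm38.p6, 5′ to 3′ on the gene's own strand. Capitals mark E-boxes (CANNTG, the same on both strands), the element read by the myogenic factors MyoD and myogenin and by other factors. An E-box occurred in 66.2% of the 32851 mouse promoter windows of this length, and a GC box (GGGCGG on either strand) in 32.7%. The windows are Dag1 at chr9:108263959-108264208 on the minus strand, Sgca at chr11:94976328-94976577 on the minus strand and Dmd at chrX:82948620-82948869 on the plus strand.
Dag1: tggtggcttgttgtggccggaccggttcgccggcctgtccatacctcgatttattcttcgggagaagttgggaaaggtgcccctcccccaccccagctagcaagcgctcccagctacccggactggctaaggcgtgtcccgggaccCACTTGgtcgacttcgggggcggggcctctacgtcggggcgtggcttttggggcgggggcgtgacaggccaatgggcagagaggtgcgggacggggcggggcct
Sgca: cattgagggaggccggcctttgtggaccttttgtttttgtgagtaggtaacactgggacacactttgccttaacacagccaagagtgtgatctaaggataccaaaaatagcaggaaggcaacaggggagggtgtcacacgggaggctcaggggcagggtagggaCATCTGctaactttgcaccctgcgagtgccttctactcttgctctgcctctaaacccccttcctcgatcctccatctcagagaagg
Dmd: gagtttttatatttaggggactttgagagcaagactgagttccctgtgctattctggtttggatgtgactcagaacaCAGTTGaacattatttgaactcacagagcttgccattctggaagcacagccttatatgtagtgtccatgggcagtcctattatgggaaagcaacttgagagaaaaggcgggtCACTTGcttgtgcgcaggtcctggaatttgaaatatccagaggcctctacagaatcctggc
Dag1 held 1 E-box, with its first base at -104 from the start, and 3 GC boxes at -87, -54 and -11. Sgca held 1 E-box at -86 and no GC box. Dmd held 2 E-boxes, at -173 and -61, and was the only one of the 3 windows with a CArG box (-98), the site of serum response factor that 1.47% of all windows held, and a MEF2 motif (-244), which 2.92% held. RefSeq gives a second start for both Dag1 and Dmd. The window before the second start of Dag1 overlaps the first, and that of Dmd, inside the gene, held 3 GC boxes and no E-box, CArG box or MEF2 motif. These are matches of letters and no binding was measured.

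The next comparisons asked whether metformin or leucine alone changed these genes during serum deprivation. By edgeR's quasi-likelihood test none of the 8 genes passed in MET vs. SD, where 0.157% of all genes were called, or in LEU vs. SD, where 0.553% were. DESeq2 and limma also called 0 of the 8 in both. At an unadjusted p of 0.05, 1 of the 8 was below for metformin and 0 for leucine. That gene was Dtna, at 130 CPM in the median SD library and 123 in the median MET library, a change of -6.29% (unadjusted p = 0.0169, adjusted p = 0.372). In order of p-value Dtna was gene 724 of the 15907 tested in MET vs. SD, so many other genes were also below. All 8 log2 fold changes were negative in MET vs. SD, from -0.094 to -0.011, with a median of -0.044 against -0.0047 for all genes. In LEU vs. SD they ran from -0.017 to 0.051, 6 of them positive. The 95% intervals over the 8 genes stayed between -14.6% and 7.37% for MET and between -7.51% and 16.1% for LEU, and in both cases the interval of Dmd was the widest. MET, LEU and MET+LEU were all compared with the same 6 SD libraries.

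In MET+LEU vs. SD, 2 of the 8 genes rose and none fell, while 18.4% of all genes were called, 10.6% higher and 7.8% lower. The 2 were Utrn and Sspn. The median log2 fold change of the 8 was 0.03, against -0.005 for all genes. In these groups the summed level of the myotube markers was 34983 to 43999 CPM in MET+LEU, beside 35338 to 37769 CPM in SD, with 5 markers higher and 2 lower. The markers of undifferentiated or cycling myoblasts summed to 593 to 665 CPM in MET+LEU and 669 to 739 CPM in SD, without overlap, and 4 of the 9 fell and 0 rose. Of the 8 fibroblast markers, 2 rose and 2 fell. Their part in the result was not tested.

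Utrn ranged from 382 to 430 CPM in SD (median 416) and from 423 to 500 CPM in MET+LEU (median 437), and its ranges overlapped. It rose by 9.2% (log2 fold change 0.13 ± 0.035, adjusted p = 0.00766). The 2 highest MET+LEU libraries were replicate 6, at 500 CPM, and replicate 1, at 461 CPM. Replicate 6 is the library rich in ribosomal RNA, and its omission left Utrn at 0.089 on the log2 scale, with an adjusted p of 0.0583. Fitted with only the libraries of these 2 groups, the adjusted p was 0.0722.

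Sspn ranged from 98.7 to 107 CPM in SD (median 103) and from 104 to 124 CPM in MET+LEU (median 110), again with overlap. It rose by 9.08% (0.13 ± 0.042, adjusted p = 0.0309). Without MET+LEU replicate 6 the value was 0.12 (adjusted p = 0.0399). The call was lost in 6 of the 30 fits that left out 1 library, namely SD replicate 1, 2 or 3 and MET+LEU replicate 1, 2 or 5, with the adjusted p reaching 0.142 without MET+LEU replicate 2. With an offset for GC content it was 0.081 (adjusted p = 0.154).

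The other 6 genes did not pass in MET+LEU vs. SD. Sgcb came closest, at 163 CPM in the median SD library and 170 in the median MET+LEU library, a change of 3.98% with a 95% interval from -0.535% to 8.71% (adjusted p = 0.226). Dag1 had medians of 1064 CPM in SD and 1069 in MET+LEU, with an interval of the change from -4.0% to 6.04%. Sgca and Sgcd changed by -0.862% and 1.07%. Dmd was the most variable, with a coefficient of variation of 17.1% in MET+LEU against 4.74% in SD. Its MET+LEU libraries ran from 45.4 CPM in replicate 2 to 77.2 CPM in replicate 6, with a median of 66.3, and its change of 3.18% had an interval from -7.95% to 15.7%.

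**Figure D4:**
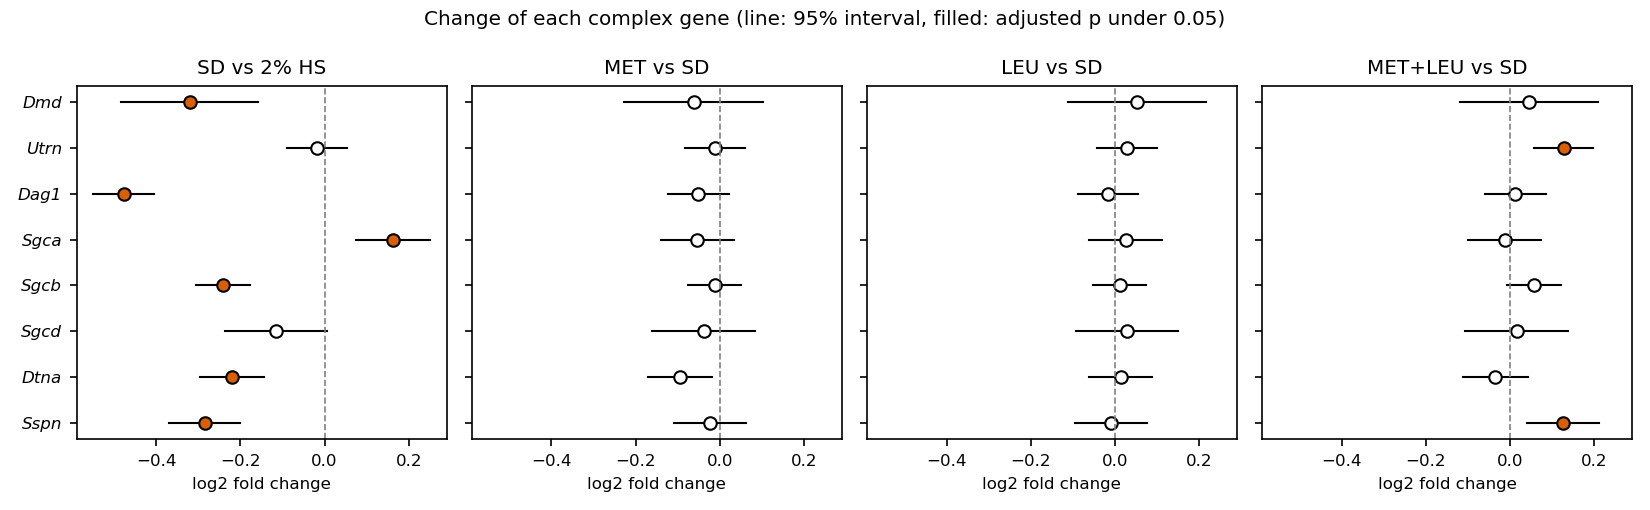
Log2 fold change of each gene (points) with its 95% interval (lines) for serum deprivation against 2% HS and for each treatment against SD; filled points have an adjusted p under 0.05. Filled points appear for 6 genes in the first comparison, for none in MET or LEU, and for Utrn and Sspn in MET+LEU.

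Against the single treatments, Utrn and Sspn were again the genes called. In MET+LEU vs. MET, where 8.69% of all genes were called, Utrn rose by 10.0% (log2 fold change 0.14 ± 0.035, adjusted p = 0.00918) and Sspn by 10.8% (0.15 ± 0.042, adjusted p = 0.0208). Every MET+LEU library of Utrn lay above every MET library, whose highest was 415 CPM. Without MET+LEU replicate 6 the log2 values were 0.097 for Utrn (adjusted p = 0.0684) and 0.14 for Sspn (adjusted p = 0.0338). The call of Sspn was lost without MET replicate 3, 5 or 6 and without MET+LEU replicate 2 or 5 (adjusted p up to 0.0976). Without MET+LEU replicate 2, Dmd did pass, at a log2 value of 0.19 (adjusted p = 0.0347). With only these 2 groups fitted, the adjusted p was 0.0513 for Utrn and 0.0886 for Sspn. In MET+LEU vs. LEU, where 6.28% of all genes were called, only Sspn passed, at 9.81% (0.14 ± 0.042, adjusted p = 0.0439). That call held in 4 of the 30 fits that left out 1 library, and the adjusted p was 0.0788 without MET+LEU replicate 6. Utrn had 7.03% (adjusted p = 0.0805) in the same comparison.

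The interaction asks whether the combination departs from the sum of the single effects on the log2 scale. None of the 8 genes passed it by edgeR's quasi-likelihood test, nor by DESeq2 or limma, and 0.0503% of all genes did. At an unadjusted p of 0.05, 2 of the 8 were below, Sspn (log2 value 0.16, unadjusted p = 0.0112, adjusted p = 0.399) and Utrn (0.11, unadjusted p = 0.0321, adjusted p = 0.509). In order of p-value Sspn was gene 444 and Utrn gene 1005 of the 15907 tested, so many other genes were also below. Without MET+LEU replicate 6, the log2 values were 0.15 for Sspn and 0.065 for Utrn, and again 0 of the 8 passed.

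MET+LEU was also compared with 2% HS, to see which genes were at another level than in serum. Of the 8 genes 7 passed, 5 lower and 2 higher, while 42.3% of all genes were called, 20.3% lower and 22.1% higher. Dag1 had medians of 1486 CPM in 2% HS and 1069 in MET+LEU and fell by 27.5% (log2 fold change -0.46 ± 0.036, adjusted p = 5.18e-15). Dmd, Dtna, Sgcb and Sspn were also lower, with changes of -17.4%, -16.2%, -12.1% and -10.5% (adjusted p from 2.77e-07 to 0.0059). Dag1, Sgcb and Dtna did not overlap between these groups, whereas Dmd and Sspn did. Sgca rose by 10.96% with overlapping libraries (adjusted p = 0.00436, and 0.0687 with an offset for exon length). Utrn rose by 7.83% (0.11 ± 0.035, adjusted p = 0.0101), its lowest MET+LEU library (423 CPM) lying above its highest 2% HS library (421 CPM). Without MET+LEU replicate 6 its log2 value was 0.067 (adjusted p = 0.0934). Dmd had an adjusted p of 0.0719 when only these 2 groups were fitted. Sgcd did not pass (-6.73%, adjusted p = 0.182). With the GC offset it did pass, at a log2 fold change of -0.14 (adjusted p = 0.0321, and 0.0262 with the replicate block added). Without MET+LEU replicate 6, the other 6 calls held and 6 of the 8 genes passed, with log2 fold changes from -0.50 (Dag1) to 0.17 (Sgca). SD and MET+LEU were set against the same 2% HS libraries.

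The remaining members of the complex did not share one direction in SD vs. 2% HS. Of 13 listed, 10 were tested, and 3 rose and 2 fell, with a median log2 fold change of 0.022, while 27.8% of all genes were called. Nos1, the neuronal nitric oxide synthase that the complex holds at the membrane, rose by 37.9% (log2 fold change 0.46 ± 0.059, adjusted p = 2.5e-08). The sarcoglycan Sgce rose by 16.3% (0.22 ± 0.074, adjusted p = 0.0224, but 0.112 without SD replicate 4). The syntrophin Sntb1, an adaptor bound to dystrophin and dystrobrevin, fell by 25.9% (-0.43 ± 0.042, adjusted p = 8.11e-12). With MET+LEU, only Sync, the intermediate filament protein syncoilin that binds dystrobrevin, passed against SD, and it rose by 25.9% (0.33 ± 0.059, adjusted p = 0.000166; 0.24 without MET+LEU replicate 6), where 18.4% of all genes were called.

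Of the 9 listed ligands of dystroglycan in the matrix, 8 were tested, and on SD 5 fell and 2 rose, against 13.9% of all genes in each direction. The median log2 fold change was -0.14. The laminin chain genes Lama1, Lamb1 and Lamc1 fell, with changes of -31.1%, -26.96% and -15.6%. Bgn, which encodes the proteoglycan biglycan, rose by 37.6% (0.46 ± 0.041, adjusted p = 6.01e-13). Under MET+LEU, 3 of the 8 were lower than in SD and none higher, against 7.8% and 10.6% of all genes. They were Hspg2 (perlecan), which fell by 13.5%, Agrn (agrin), which fell by 12.05%, and Lamb2, which fell by 8.13%. The call of Lamb2 was lost with an offset for GC content (adjusted p = 0.723) and without MET+LEU replicate 6 (adjusted p = 0.0664), and that of Agrn with only these 2 groups fitted (adjusted p = 0.0555).

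Of 18 listed genes that build the laminin-binding sugar of dystroglycan, 17 were tested. In SD vs. 2% HS, 2 rose and 2 fell, a share near the 27.8% of all genes called. Under MET+LEU, 1 rose and 2 fell, near the 18.4% of all genes. Gmppb (log2 fold change 0.34) and Pomk (0.22) were higher in SD than in 2% HS, and B3galnt2 (-0.26) was among the lower. With MET+LEU, Rxylt1, which adds the ribitol-linked xylose, rose by 26.5% vs. SD (0.34 ± 0.062, adjusted p = 0.000101). Dolk, a kinase of dolichol, fell by 14.7% (-0.23 ± 0.068, adjusted p = 0.0137, but 0.0582 with the replicate block and GC offset).

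Of 13 genes for cytoskeletal linkers, 11 were tested. In SD vs. 2% HS, 3 fell and 2 rose, while 27.8% of all genes were called. Ank2, an ankyrin that helps to place dystrophin and dystroglycan at the membrane, fell by 37.9% (-0.69 ± 0.061, adjusted p = 5.25e-13). Vcl (vinculin) had a log2 fold change of -0.22, Plec (plectin) one of 0.18 and Des (desmin) one of 0.13. Under MET+LEU, 3 were below SD (Flnc -0.20, Mark2 -0.14 and Actg1 -0.14 on the log2 scale) and Ank3 rose (0.15), while 18.4% of all genes were called. Only the call of Flnc held under all 13 alternatives. The adjusted p of Mark2 was 0.223 with the GC offset, that of Actg1 0.152 with limma-voom and that of Ank3 0.0773 with only these 2 groups fitted (0.0512 without MET+LEU replicate 5). Whether Actg1 shares reads with near-identical copies was not tested. All 14 genes of membrane repair and other muscular dystrophies were tested. In SD vs. 2% HS, 5 rose and 5 fell, against 13.9% of all genes in each direction, and the 3 collagen VI genes rose most: Col6a3 by 123% (adjusted p = 2.72e-30), Col6a2 by 83.3% and Col6a1 by 60.9%. Lmna (lamin A/C) rose by 29.1%. Under MET+LEU, 3 of the 14 were lower than in SD, with changes of -13.7% for Col6a3, -10.4% for Dysf (dysferlin) and -9.61% for Itga7 (integrin alpha 7), beside 7.8% of all genes called lower. The call of Itga7 held in 8 of the 13 alternatives (adjusted p = 0.205 with limma-voom, and 0.0807 without MET+LEU replicate 6), and that of Dysf was lost with only these 2 groups fitted (adjusted p = 0.0518). Every other gene named from the 5 lists in this comparison kept its call without MET+LEU replicate 6, apart from Lamb2.

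**Figure D5:**
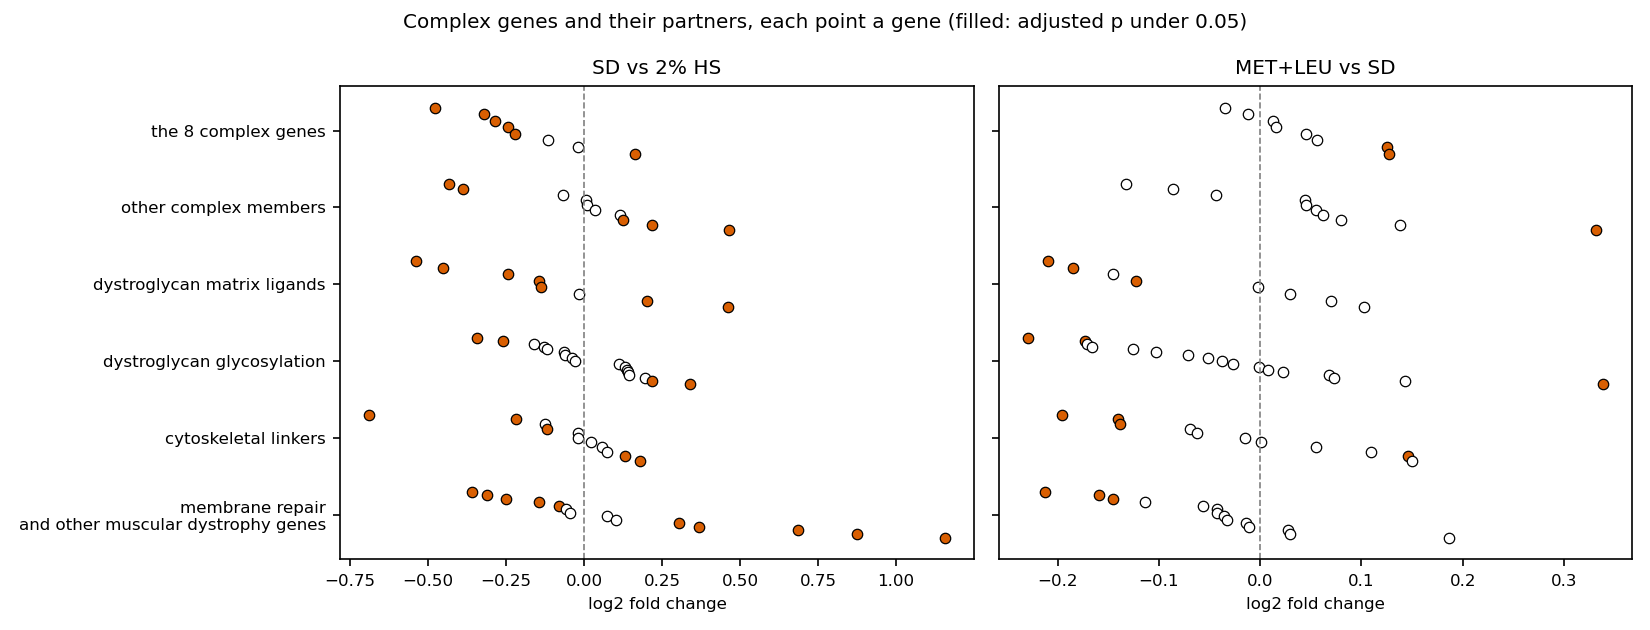
Log2 fold change of the 8 complex genes and of each tested gene in the 5 lists of partners, in SD vs. 2% HS (left) and MET+LEU vs. SD (right, with its own axis range); filled points have an adjusted p under 0.05. In SD vs. 2% HS, 5 of the 8 complex genes are filled on the negative side, and the 3 points farthest to the right are the collagen VI genes.

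Across the 30 libraries, the 8 genes gave 28 pairs, whose Pearson correlations of log2 CPM had a median of 0.35 and ran from -0.65 (Sgca with Sspn) to 0.89 (Dag1 with Sgcb). The libraries share 5 groups, and once the group means were removed the median was 0.011, from -0.41 to 0.47. Of 12697 genes, the one closest to Dag1 over the 30 libraries was St3gal5 (r = 0.97), and the genes closest to Sgcb were Ckmt2 and Ckm, the mitochondrial and cytosolic muscle creatine kinases (r = 0.94 for both). Sspn was closest to Jade1 (0.91), Dtna to Akap6 (0.93), Utrn to Brd7 (0.85), Dmd to Gm45159 (0.89), Sgca to Fam129b (0.84) and Sgcd to Vps13a (0.72). These are descriptions, since genes with the same difference between groups correlate over such libraries.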

How the data were processed

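RNA was measured in 30 libraries, 6 for each of 5 groups, taken from the sample labels. The authors prepared stranded total RNA libraries depleted of ribosomal RNA, sequenced paired reads and deposited raw counts per Ensembl gene, with no normalization. The submitters' processing notes name cutadapt 1.16, STAR 2.7.6a, featureCounts 1.6.3, DESeq2 1.30.1 and GRCm38. The annotation release and the strand setting of the counting are not given in the sources used here. Of 55487 identifiers, 55141 matched GENCODE M21, which gave symbols, positions and lengths.

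Counts were filtered with filterByExpr (minimum count 10, minimum total 15), scaled by TMM and fitted across all 30 libraries with the robust quasi-likelihood model of edgeR 4.0.16 in R 4.3.3, 1 mean per group. Benjamini-Hochberg adjustment ran over all 15907 genes, with a threshold of 0.05. CPM values are TMM-scaled and levels per kb divide them by the exon union. The ratio of Utrn to Dmd was tested by an exact permutation test. Alternatives used DESeq2 1.42.0, limma 3.58.1, other scalings, filters and offsets, the replicate number as a block, and the omission of each library. The analysis was tested on simulated data. DESeq2 made more false calls there than the limit first set, which was then relaxed for the alternative tools and tightened for edgeR. Promoter sequences are those of RefSeq for GRCm38.p6. The start that RefSeq gives for Utrn lies inside the annotated gene, so its window was not shown.

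The 8 genes, the lists of partners and the markers were chosen with earlier results of these data known. All 8 genes are named, and per list and comparison at most 4 called genes, those with the largest absolute log2 fold change. A few genes that this rule selects are not reported here. For pattern likeness, only genes whose mean log2 CPM reached 1 were compared. Same-numbered replicates of different groups did not deviate together (mean correlation 0.0157 over 60 pairs, from -0.091 to 0.142), so the numbers were not taken as pairs. No replicate pair agreed within sampling noise.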

Additional observations from a re-analysis of the deposited data

Results flagged for a closer look

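In 3 of the 45 sets of 6 libraries examined, 1 library lay far from the others of its group; its gap to the nearest library was large against the group's whole range (Dixon's 95% limit). Chance flags about 1 in 20 such groups. Sgca in SD replicate 1 was at 96.1 CPM, and the next highest SD library was at 87.2 CPM. Sgca in LEU replicate 1 was at 81.5 CPM, below the next lowest LEU library at 87.8 CPM. The ratio of Utrn to Dmd counts in MET+LEU replicate 2 was 9.32, and the next highest MET+LEU library had 7.25. In that library Dmd was at 45.4 CPM, the lowest of the group, and Utrn at 423 CPM was also the lowest of the group. Without SD replicate 1, the log2 fold change of Sgca in SD vs. 2% HS was 0.13 (adjusted p = 0.0222).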

How the results depend on the processing

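The 6 calls in SD vs. 2% HS kept their direction and stayed past the threshold under all 13 alternatives and in all 30 fits that left out 1 library, where 6 or 7 genes were called. The 0 calls for MET or LEU against SD and for the interaction stayed 0 throughout. The rises under MET+LEU did not. For MET+LEU vs. SD the 2 calls became 1 with upper-quartile normalization, limma-voom with quality weights, the GC offset or the replicate block with GC offset, 0 with only the groups compared, and 1 to 2 with 1 library left out. For MET+LEU vs. MET the 2 calls became 0 with only the groups compared and 1 to 2 with 1 library left out. For MET+LEU vs. LEU the 1 call became 0 with DESeq2 size factors, upper-quartile normalization, limma-voom, genes with more than 5 counts in total, the GC offset, the replicate block with GC offset, the exon length offset, scaling without ribosomal RNA and mitochondrial genes, or only the groups compared, and 0 to 1 with 1 library left out. For MET+LEU vs. 2% HS, 6 to 8 of the 8 genes were called over the alternatives. The cause was not tested. The lowest count behind any value of the 8 genes was 468, for Sgcd in a MET+LEU library.

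With the replicate block, the counts of called genes were 6 in SD vs. 2% HS, 2 in MET+LEU vs. SD, 7 in MET+LEU vs. 2% HS, 2 in MET+LEU vs. MET and 1 in MET+LEU vs. LEU, so the block changed no call of the 8 genes. For the ratio of Utrn to Dmd in SD vs. 2% HS, the replicate block gave 0.298 (exact test of paired differences, unadjusted p = 0.0312, the smallest that 6 pairs allow, adjusted p = 0.125 over 4 comparisons). With 1 library left out, the ratio in LEU vs. SD ran from -0.043 to 0.00017.

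No reversal touched a called gene. With upper-quartile normalization, Dag1 -0.0025 in MET+LEU vs. SD, Sgca -0.0061 in the interaction of MET and LEU changed sign. With limma-voom with quality weights, Dag1 -0.012 and Sgca 0.024 in MET+LEU vs. SD, Dag1 -0.00011 in MET+LEU vs. LEU changed sign. With GC offset, Sgcd -0.0018 in LEU vs. SD, Dmd -0.042, Sgca 0.059, Sgcb -0.0084 and Sgcd -0.091 in MET+LEU vs. SD, Sgcd -0.0095 in MET+LEU vs. MET, Sgca 0.015 and Sgcb -0.013 in MET+LEU vs. LEU, Sgcd -0.0077 in the interaction of MET and LEU changed sign. With replicate block with GC offset, Sgcd -0.00081 in LEU vs. SD, Dmd -0.044, Sgca 0.059, Sgcb -0.0083 and Sgcd -0.090 in MET+LEU vs. SD, Sgcd -0.0090 in MET+LEU vs. MET, Sgca 0.015 and Sgcb -0.013 in MET+LEU vs. LEU, Sgcd -0.0082 in the interaction of MET and LEU changed sign. With exon length offset, Utrn 0.031 in SD vs. 2% HS, Sspn 0.0018 in LEU vs. SD, Dmd -0.0037 in MET+LEU vs. SD changed sign. Leaving out 1 library, the values that changed sign ran as follows. Utrn from -0.034 to 0.0022 in SD vs. 2% HS. Utrn from -0.029 to 0.0057, Sgcd from -0.084 to 0.0055 in MET vs. SD. Dag1 from -0.023 to 0.0037, Sgcd from -0.018 to 0.072, Dtna from -0.0035 to 0.046, Sspn from -0.021 to 0.0052 in LEU vs. SD. Dmd from -0.015 to 0.13, Dag1 from -0.016 to 0.024, Sgca from -0.046 to 0.014, Sgcd from -0.041 to 0.049 in MET+LEU vs. SD. Dmd from -0.070 to 0.071, Dag1 from -0.0030 to 0.037, Sgcd from -0.044 to 0.0077 in MET+LEU vs. LEU. Dmd from -0.011 to 0.13, Sgca from -0.032 to 0.029, Sgcd from -0.028 to 0.062 in the interaction of MET and LEU.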
